A study of Mus musculus with 8 samples.

Results

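Macrophages and monocytes are described here through 45 genes that mark them or that they use, among the 48587 gene symbols measured by RNA sequencing in the whole aortic tree of the mouse. The genes were chosen by name, from what they are known to mark, but with earlier results of these data known. They cover resident macrophage genes (Lyve1, Folr2, Cd163, Mrc1, Timd4) and lipid-associated genes (Trem2, Gpnmb, Lgals3). The other 37 are genes of macrophage identity, complement, receptors, the phagocyte oxidase, a lysosomal protease and recruited monocytes. All 45 had a row in the count table, and all 45 were among the 16194 genes kept by the filter on low counts. Cd300lf and Marco reached 10 counts in fewer than 2 of the vehicle libraries, so both entered the test through the VitD libraries.

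Most macrophages of the healthy mouse aorta lie in the adventitia, the outer coat of the vessel, and carry the scavenger and mannose receptors Cd163 and Mrc1 together with Lyve1 and Folr2. Blood monocytes enter an injured or inflamed wall along gradients of the chemokine Ccl2, which they sense through Ccr2, and mature there into macrophages. Macrophages clear dead cells, lipid and mineral debris, and those that take up lipid or cell remains switch on Trem2, Gpnmb and Lgals3. Survival of the lineage depends on signalling through Csf1r, and its identity on the transcription factor PU.1, which is encoded by Spi1.

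The study compared mice given vehicle or VitD (vitamin D) in 2 genotypes. These were wild type, described as litter controls, and a Tet2 knockout described as specific to vascular smooth muscle cells. Macrophages are thus not the stated target, and whether those of the knockout mice keep Tet2 was not tested. The 4 groups are called WT_vehicle, WT_VitD, Tet2KO_vehicle and Tet2KO_VitD, with 2 libraries in each, numbered 1 and 2. The labels give no dose, duration, age, Cre driver or number of mice per library. Whether 2 libraries of a group come from different animals is not stated, and p-values therefore measure only how far these libraries spread, a spread that may be technical.

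Each library held 15679274 to 22332149 counts. Levels are given as CPM, counts scaled to a common library size after normalisation by the trimmed mean of M-values (TMM). A gene is called higher or lower where the adjusted p of edgeR's quasi-likelihood test (Benjamini-Hochberg over 16194 genes) is under 0.05, and a log2 fold change is given with its standard error (SE). The smooth muscle genes that define the tissue were abundant in every library: 8 of them summed to 16161 to 34195 CPM. Tet2 stood at 35.8 and 32.2 CPM in WT_vehicle 1 and 2, 42 and 35.2 in Tet2KO_vehicle, 18.3 and 20 in WT_VitD, and 26.6 and 37.6 in Tet2KO_VitD. It was therefore not lower in the libraries labelled Tet2KO under either treatment. The labels do not name the deleted exons, a count over the whole gene need not show them, and every genotype direction below rests on the labels. Library names carry numbers under 5000 in 5 libraries and above 5000 in 3, which are WT_VitD 1, WT_VitD 2 and Tet2KO_VitD 1; the labels do not say what the numbers stand for, and in the WT mice number range and treatment cannot be told apart. The share of counts in ribosomal protein genes was 4.85 to 5.51% for the higher number range and 2.1 to 2.57% for the lower, and whether this bears on the values below was not tested.

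In the aortas of WT mice, 40 of the 45 macrophage and monocyte genes were higher after VitD and 0 were lower. Over all genes tested, 20.1% were called in either direction and 10.6% were called higher and 9.47% lower. The median log2 fold change of the 45 genes was 2.34, beside -0.03 over all genes. The 5 largest rises were those of the activation genes Chil3, Wfdc17 and Arg1 (218-, 45.4- and 25.7-fold) and of the receptors Cd300lf and Fcgr4 (27.6- and 23.4-fold). Chil3, Arg1, Cd300lf and Fcgr4 had 2 to 24 counts in each WT_vehicle library, so the size of their folds is uncertain. Both WT_VitD libraries lay above both WT_vehicle libraries for 44 of the 45 genes, a pattern that 33.8% of all genes showed, and Gpnmb was the exception. The 5 genes not called were Timd4, Gpnmb, Ptprc, Treml4 and Marco. In whole tissue, more cells of a type and more RNA per cell cannot be told apart.

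Together the 45 genes took 0.109 and 0.106% of all counts in WT_vehicle 1 and 2, 0.419 and 0.531% in WT_VitD, 0.139 and 0.165% in Tet2KO_vehicle and 0.463 and 0.287% in Tet2KO_VitD. The share was thus lowest in the WT_vehicle libraries and highest in WT_VitD 2, and Tet2KO_VitD 2 lay between the vehicle libraries and the other 3 VitD libraries. Without Lyz2, the most abundant of the 45, the other 44 genes summed to 827 and 809 CPM in WT_vehicle, 3244 and 3958 in WT_VitD, 1066 and 1290 in Tet2KO_vehicle, and 3332 and 2176 in Tet2KO_VitD, in the same order of groups.

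**Figure D1:**
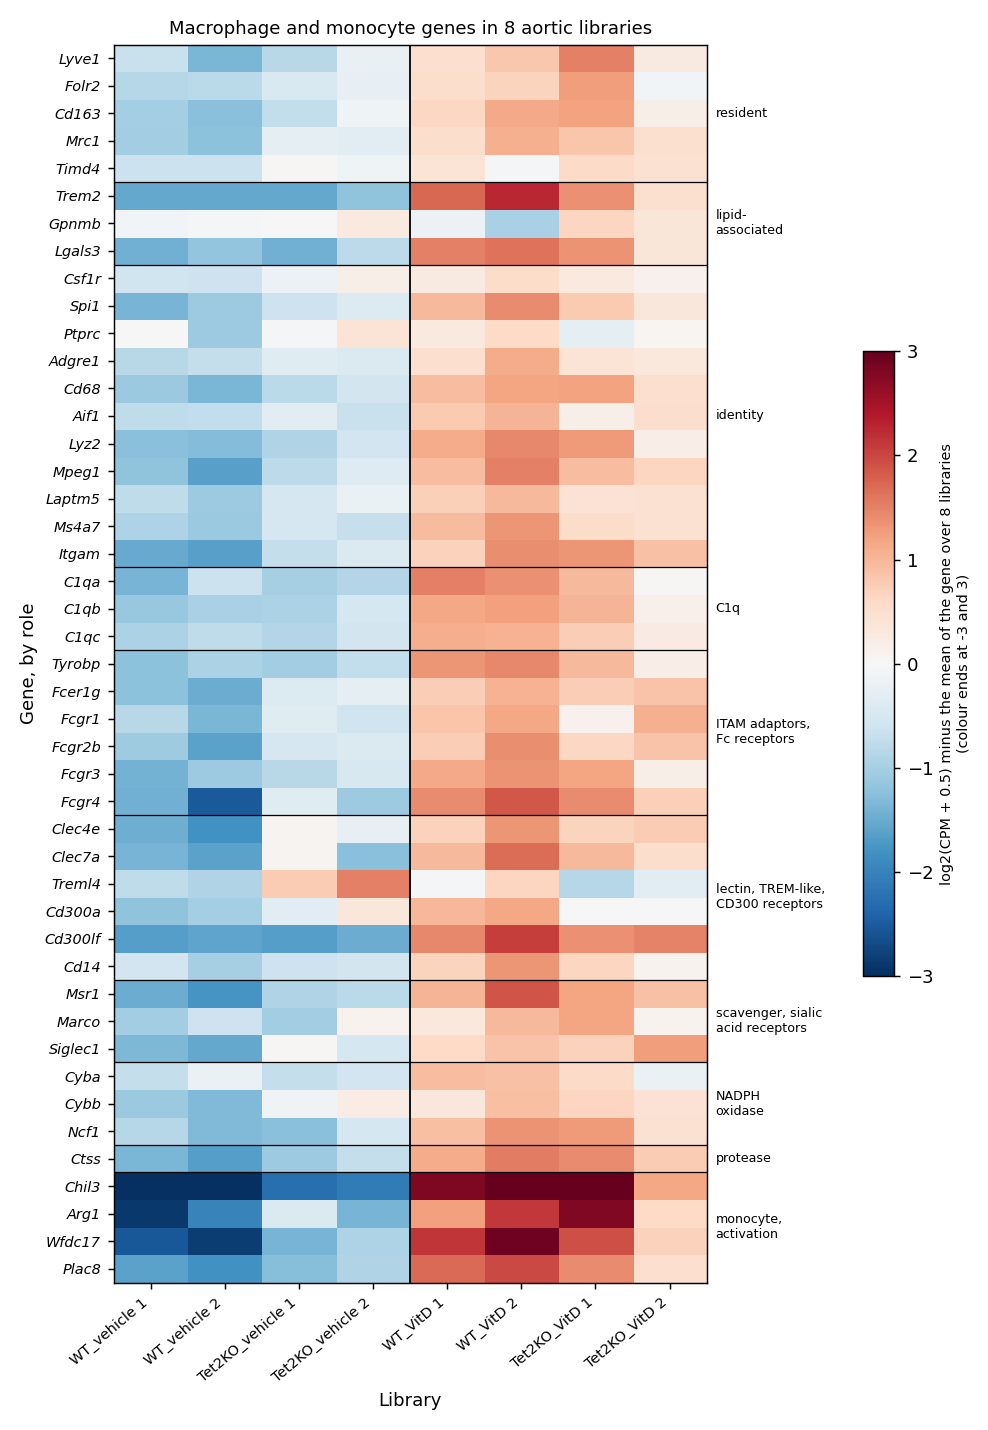
Level of each of the 45 genes (rows, grouped by role) in each of the 8 libraries (columns), as log2(CPM + 0.5) minus the mean of that gene over the 8 libraries; red is above the mean, blue below, and the colour ends at -3 and 3. The 4 VitD libraries right of the line are red for most genes, palest in Tet2KO_VitD 2, and Gpnmb and Treml4 depart from the pattern.

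In the mice labelled Tet2KO, 5 of the 45 genes were called higher after VitD and 0 lower: Trem2, Cd300lf, the lysosomal protease gene Ctss, Chil3 and Plac8. Over all genes 0.198% were called in this comparison, 0.179% higher and 0.0185% lower. At an unadjusted p under 0.05 there were 37 of the 45 genes, beside 13.3% of all genes, and the log2 fold change was above 0 for 42, with a median of 1.23 against -0.01 over all genes. Both Tet2KO_VitD libraries lay above both Tet2KO_vehicle libraries for 41 genes, beside 23.7% of all genes. The 4 genes outside this pattern were Csf1r, Ptprc, Treml4 and Cd300a.

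All 4 VitD libraries lay above all 4 vehicle libraries for 39 of the 45 genes, against 12.6% of all genes. The 5 genes called in both genotypes show the pattern without overlap. Their promoters, from the RefSeq promoter table (GRCm38.p6), are shown because they hold or lack the core of the PU box, the sequence GAGGAA that PU.1 is known to bind. Each runs 5′ to 3′ on the strand of the gene, from 110 bases before the start given in that table to 10 bases after it. Plac8 has 2 windows there, of which the more upstream is shown, and its RefSeq start lies inside the gene as GENCODE draws it. Capitals mark GAGGAA or its reverse complement TTCCTC.
Trem2 (chr17:48346291-48346410, plus strand): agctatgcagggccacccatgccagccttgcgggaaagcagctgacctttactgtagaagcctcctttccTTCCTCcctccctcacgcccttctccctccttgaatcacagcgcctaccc
Cd300lf (chr11:115133983-115134102, minus strand): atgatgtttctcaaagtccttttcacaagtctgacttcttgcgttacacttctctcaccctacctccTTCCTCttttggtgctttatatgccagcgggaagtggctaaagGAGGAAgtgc
Ctss (chr3:95526676-95526795, plus strand): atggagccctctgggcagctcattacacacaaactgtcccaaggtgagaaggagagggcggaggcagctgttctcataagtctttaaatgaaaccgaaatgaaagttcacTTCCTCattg
Chil3 (chr3:106167555-106167674, minus strand): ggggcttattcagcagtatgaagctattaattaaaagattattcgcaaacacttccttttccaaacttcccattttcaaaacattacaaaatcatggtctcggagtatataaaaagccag
Plac8 (chr5:100572196-100572315, minus strand): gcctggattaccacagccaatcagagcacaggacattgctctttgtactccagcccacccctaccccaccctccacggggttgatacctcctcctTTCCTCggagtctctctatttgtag

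Of these 5 stretches, Cd300lf holds 2 matches, Trem2, Ctss and Plac8 hold 1 each, and Chil3 holds 0. The table has windows of 300 bases for 35 of the 45 genes, and 23 of the 35 (65.7%) hold GAGGAA on either strand, against 8446 of 27025 genes in the table (31.3%). The longer form GAGGAAGT, which contains GAGGAA, is held by 4 of the 35 (11.4%) and by 3.69% of all genes. These are matches of letters, and binding was not measured.

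Chil3, which encodes a chitinase-like protein secreted by activated macrophages, had 0.559 and 0.285 CPM in WT_vehicle 1 and 2, 62.7 and 122 in WT_VitD, 1.41 and 1.62 in Tet2KO_vehicle, and 91.2 and 19.8 in Tet2KO_VitD. The 4 VitD libraries were all above the 4 vehicle libraries, and Tet2KO_VitD 2 was the lowest of them. Its log2 fold change was 7.77 (SE 0.884, adjusted p = 0.00297) in WT and 5.18 (SE 0.746, adjusted p = 0.0419) in Tet2KO. The near copy Chil4 had 0 to 5 counts per library.

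Trem2, a receptor for lipids and cell debris on phagocytes (chr17:48346401-48354147, mm10), had 2.55 and 2.56 CPM in WT_vehicle, 28.4 and 41.8 in WT_VitD, 2.52 and 3.29 in Tet2KO_vehicle, and 22.3 and 11.8 in Tet2KO_VitD. The vehicle libraries of the genotypes overlapped and every VitD library was above them. The log2 fold change was 3.78 (SE 0.376, adjusted p = 0.00273) in WT and 2.54 (SE 0.362, adjusted p = 0.0417) in Tet2KO. Cd300lf, an inhibitory receptor of myeloid cells (chr11:115116214-115133992), was near 0 without VitD, at 0.249 and 0.285 CPM in WT_vehicle and 0.245 and 0.335 in Tet2KO_vehicle. After VitD it reached 5.82 and 9.28 CPM in WT_VitD and 5.53 and 6.11 in Tet2KO_VitD. Of the 5 genes it was the closest between the genotypes, with log2 fold changes of 4.79 (SE 0.458, adjusted p = 0.00273) in WT and 4.29 (SE 0.45, adjusted p = 0.0102) in Tet2KO. Both folds, and their likeness, rest on 4 to 6 counts in each vehicle library, and Cd300lf entered the test through the VitD libraries.

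Ctss encodes cathepsin S, a protease that degrades elastin and processes antigen (chr3:95526786-95556403). Its level was 25.7 and 20.9 CPM in WT_vehicle, 146 and 194 in WT_VitD, 31.2 and 40.8 in Tet2KO_vehicle, and 179 and 113 in Tet2KO_VitD, with no overlap between treatments. The log2 fold change was 2.87 (SE 0.285, adjusted p = 0.00273) in WT and 2.01 (SE 0.275, adjusted p = 0.0396) in Tet2KO. Plac8, expressed by recruited monocytes (chr5:100553725-100572245), had 6.09 and 5.13 CPM in WT_vehicle, 63.9 and 77.6 in WT_VitD, 7.67 and 10.2 in Tet2KO_vehicle, and 52.8 and 27.8 in Tet2KO_VitD. It too separated the treatments fully, with log2 fold changes of 3.66 (SE 0.335, adjusted p = 0.00267) in WT and 2.17 (SE 0.314, adjusted p = 0.042) in Tet2KO.

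**Figure D2:**
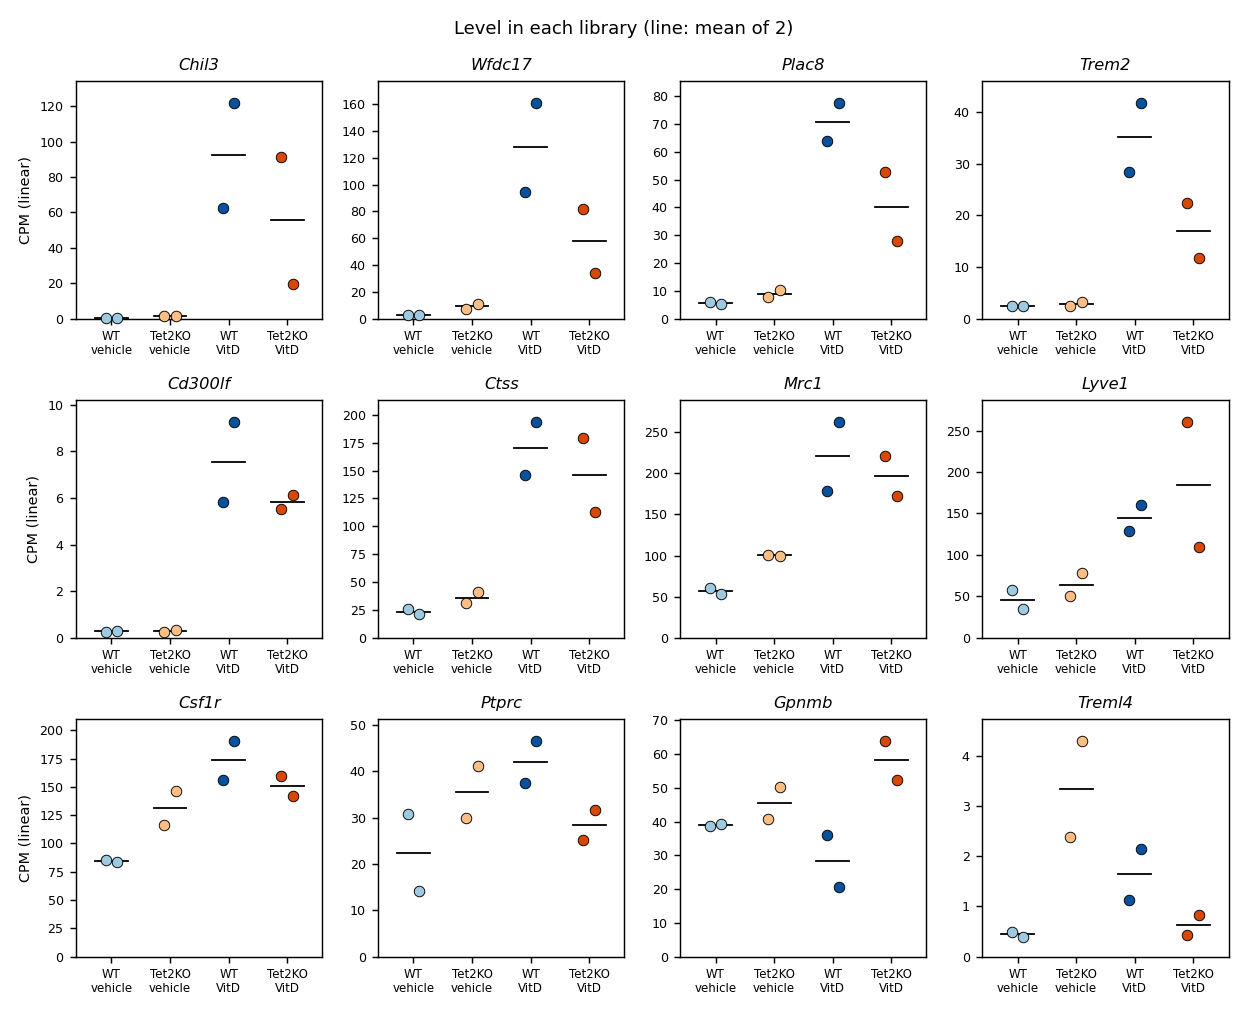
CPM (linear axis from 0) of 12 genes in each library, by group; points are the 2 libraries of a group and the line is their mean. Chil3, Wfdc17, Plac8, Trem2, Cd300lf and Ctss are low in all 4 vehicle libraries and higher in all 4 VitD libraries, while Gpnmb and Treml4 move in opposite directions in the 2 genotypes.

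The calls in Tet2KO rested on few libraries: 0 of the 5 were kept whichever of the 8 libraries was left out, since without Tet2KO_vehicle 1 or without Tet2KO_vehicle 2 no gene of the 45 was called. Without Tet2KO_VitD 2, the library of the lower number range, 31 of the 45 were called (30 higher, 1 lower), beside 11.2% of all genes, and without Tet2KO_VitD 1 there were 2, beside 0.13%. The log2 fold change of Chil3 was 5.90 without the former and 3.70 without the latter. When the number range entered the fit as a covariate, 2 of the 5 calls remained, Chil3 and Cd300lf (adjusted p = 0.0222 for both), beside 0.124% of all genes. With a trend with exon length removed, 1 of the 5 remained, Cd300lf, beside 0.105% of all genes, and the call of Chil3 ended. DESeq2 called 29 of the 45 (28 higher, 1 lower), beside 1.65% of the 28001 genes it was run on, and edgeR without the filter on low counts called 36, beside 4.37%. Within the lower number range, Tet2KO_VitD 2 lay above all 4 vehicle libraries for 41 of the 45 genes, against 21.5% of all genes, at a median of 2.41 times their mean. Against the mean of Tet2KO_vehicle, the median fold was 2.01 in Tet2KO_VitD 2 and 2.87 in Tet2KO_VitD 1. Tet2KO_VitD 2 was the lowest of the 4 VitD libraries for 31 of the 45 genes, a position it held for 33.3% of all genes.

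In WT, 44 of the 45 genes had an unadjusted p under 0.05, beside 38% of all genes, and DESeq2 called 42 (13.9% of its genes) and edgeR without the filter 43 (17.2%). Of the 40 calls, 22 were kept whichever library was left out. Without WT_vehicle 1, 23 of the 45 were called, beside 1.33% of all genes, without WT_vehicle 2 there were 30, beside 3.53%, and without WT_VitD 2 there were 27, beside 0.828%. With the number range as a covariate, which in this comparison draws on the Tet2KO_VitD libraries, 8 calls remained: Fcer1g, Siglec1, Fcgr1, Chil3, Plac8, Wfdc17, Cd300lf and Trem2. The covariate left 0.358% of all genes called, where the fit without it had called 20.1%, and the log2 fold change was still above 0 for 44 of the 45, with a median of 2.03. Of the 40 called genes, 19 had a fold over 1.5 times lower with the covariate and 1, Fcgr1, a fold over 1.5 times higher. The log2 fold change of Chil3 became 5.56, that of Wfdc17 4.24 and that of Arg1 2.45.

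**Figure D3:**
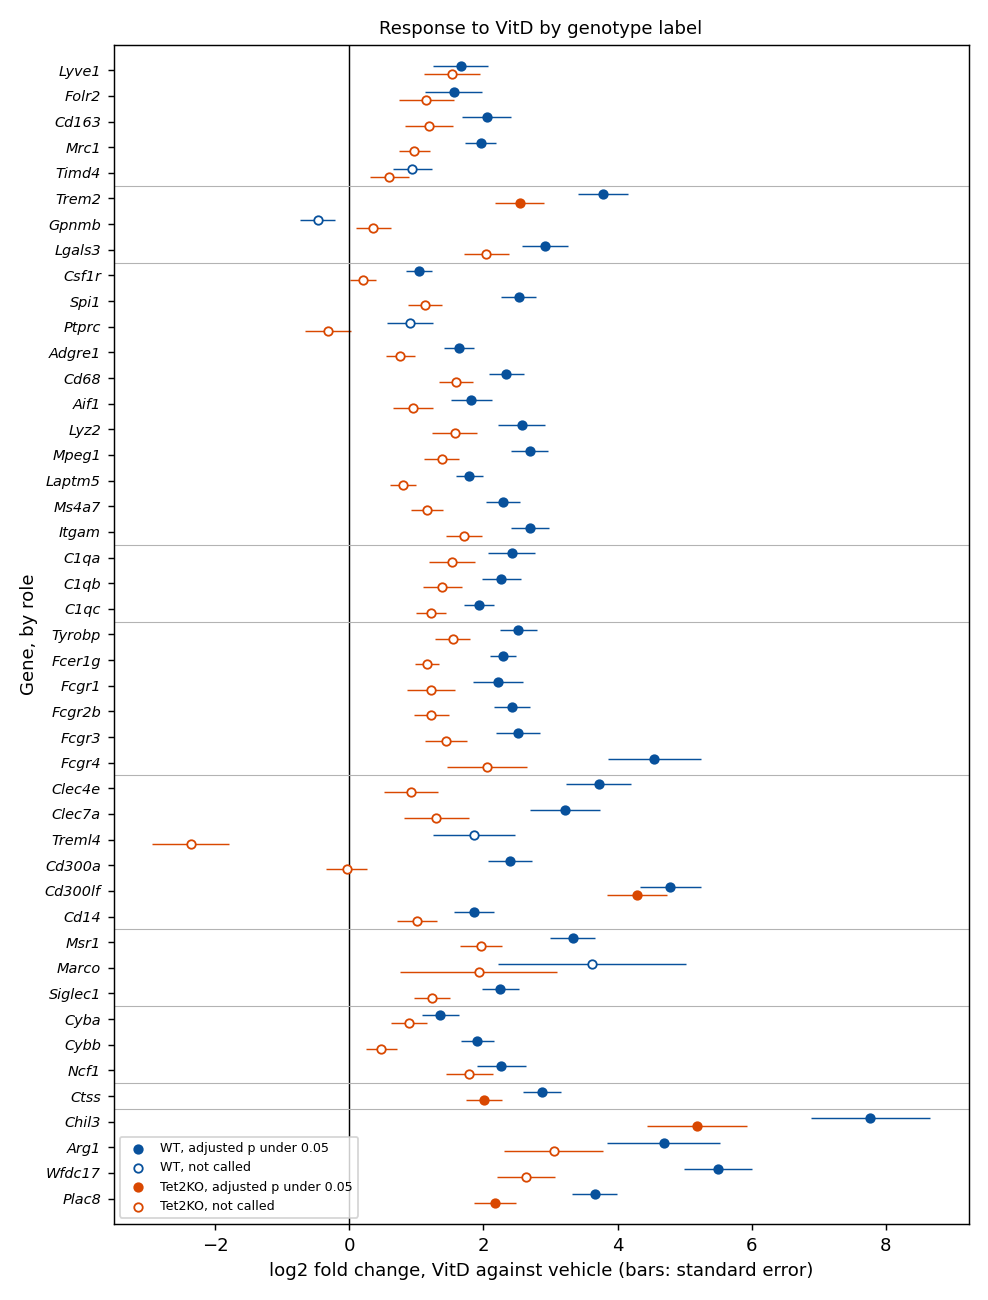
Log2 fold change of VitD against vehicle (x axis) for the 45 genes (y axis, grouped by role), in WT (blue) and Tet2KO (orange); bars are standard errors, and filled points have an adjusted p under 0.05. In WT 40 points are filled and in Tet2KO 5, and for all but Gpnmb the point of WT lies right of that of Tet2KO.

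Of the 5 resident macrophage genes, Lyve1, Folr2, Cd163 and Mrc1 rose after VitD in WT, 2.95- to 4.15-fold, and 0 of the 5 were called in Tet2KO. Mrc1, the mannose receptor, had 60.2 and 53.1 CPM in WT_vehicle, 179 and 263 in WT_VitD, 101 and 100 in Tet2KO_vehicle, and 221 and 173 in Tet2KO_VitD. The 4 groups did not overlap except for WT_VitD and Tet2KO_VitD. Its log2 fold change was 1.96 (SE 0.235, adjusted p = 0.0036) in WT and 0.97 (SE 0.228, adjusted p = 0.148) in Tet2KO.

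Cd163, the receptor that clears haemoglobin, had 42.7 and 36.2 CPM in WT_vehicle, 135 and 192 in WT_VitD, 51.7 and 79.2 in Tet2KO_vehicle, and 201 and 98.1 in Tet2KO_VitD. Lyve1, a hyaluronan receptor shared with lymphatic endothelium, had 57.1 and 34.9 CPM in WT_vehicle, 129 and 160 in WT_VitD, 50.8 and 77.6 in Tet2KO_vehicle, and 261 and 109 in Tet2KO_VitD. For both genes the highest library was Tet2KO_VitD 1 and the vehicle libraries stayed below all 4 VitD libraries. The log2 fold changes in WT were 2.05 (SE 0.362, adjusted p = 0.012) for Cd163 and 1.66 (SE 0.416, adjusted p = 0.0281) for Lyve1, and in Tet2KO 1.19 and 1.53 with adjusted p of 0.236 and 0.198. The summed level of 6 lymphatic endothelial markers was 59.5 to 98.7 CPM over the vehicle libraries and 68 to 117 over the VitD libraries, and 0 of the 6 were called in either genotype; their part in the Lyve1 value was not tested.

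Folr2, the folate receptor of resident macrophages, had 3.54 and 3.65 CPM in WT_vehicle, 9.99 and 11.2 in WT_VitD, 4.85 and 5.64 in Tet2KO_vehicle, and 17 and 6.42 in Tet2KO_VitD. Its log2 fold change in WT was 1.56 (SE 0.424, adjusted p = 0.0356), and it was not called once a trend with exon length was removed. A gene on the other strand, Gm10602, overlaps 63.1% of the Folr2 exons and had 19 to 38 counts per library. Timd4, which binds the phosphatidylserine of dying cells, had 3.29 and 3.3 CPM in WT_vehicle and 7.41 and 5.26 in WT_VitD, a log2 fold change of 0.94 (SE 0.295) with an adjusted p of 0.0537. The calls of Lyve1, Folr2 and Cd163 each ended when WT_vehicle 1, WT_vehicle 2 or WT_VitD 2 was left out. Those of Lyve1 and Folr2 ended also without WT_VitD 1, and that of Folr2 without Tet2KO_vehicle 1 or Tet2KO_vehicle 2. With 1 library left out, the log2 fold changes in WT were 1.34 to 2.06 for Lyve1, 1.48 to 1.68 for Folr2 and 1.78 to 2.32 for Cd163. Once the number range was in the fit, the log2 fold changes in WT were 0.40 for Lyve1 (adjusted p = 0.821), 0.16 for Folr2 (adjusted p = 0.926), 1.02 for Cd163 (adjusted p = 0.49) and 1.61 for Mrc1 (adjusted p = 0.133).

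The 3 lipid-associated genes parted: Trem2 and Lgals3 rose in WT and Gpnmb did not. Lgals3, which encodes galectin-3, had 14.4 and 17.1 CPM in WT_vehicle, 115 and 123 in WT_VitD, 14.4 and 22.7 in Tet2KO_vehicle, and 102 and 51.2 in Tet2KO_VitD. Every VitD library was above every vehicle library, with log2 fold changes of 2.92 (SE 0.346, adjusted p = 0.0035) in WT and 2.04 (SE 0.335, adjusted p = 0.0581) in Tet2KO. Gpnmb, a glycoprotein of lysosome-rich phagocytes (chr6:49036546-49070929), had 38.8 and 39.4 CPM in WT_vehicle, 35.9 and 20.5 in WT_VitD, 40.7 and 50.1 in Tet2KO_vehicle, and 64 and 52.3 in Tet2KO_VitD. The WT_VitD libraries were below both WT_vehicle libraries, and the Tet2KO_VitD libraries above both Tet2KO_vehicle libraries. Neither change was called, with log2 fold changes of -0.47 (SE 0.262, adjusted p = 0.22) in WT and 0.36 (SE 0.259, adjusted p = 0.548) in Tet2KO.

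Of 11 genes that mark macrophages or leukocytes at large, 10 rose in WT, from 2.05-fold for Csf1r to 6.52-fold for Itgam, and 0 were called in Tet2KO, where 9 had an unadjusted p under 0.05. Csf1r, the receptor for Csf1, had 85.3 and 83.9 CPM in WT_vehicle, 156 and 191 in WT_VitD, 116 and 146 in Tet2KO_vehicle, and 160 and 142 in Tet2KO_VitD. The WT libraries separated by treatment and the Tet2KO libraries overlapped, with log2 fold changes of 1.04 (SE 0.196, adjusted p = 0.0138) and 0.21 (SE 0.193, adjusted p = 0.636). Spi1, which encodes PU.1, had 6.22 and 7.69 CPM in WT_vehicle, 34.2 and 46.1 in WT_VitD, 10.9 and 12.7 in Tet2KO_vehicle, and 30 and 21.7 in Tet2KO_VitD. Its 4 VitD libraries were above its 4 vehicle libraries, and it rose by log2 2.53 (SE 0.261, adjusted p = 0.00273) in WT, against a difference of 1.13 (SE 0.249, adjusted p = 0.127) in Tet2KO.

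Lyz2, which encodes the lysozyme of myeloid cells, had 232 and 225 CPM in WT_vehicle, 1202 and 1514 in WT_VitD, 295 and 371 in Tet2KO_vehicle, and 1343 and 641 in Tet2KO_VitD. Treatments did not overlap, and the log2 fold change was 2.57 (SE 0.354, adjusted p = 0.00561) in WT and 1.57 (SE 0.342, adjusted p = 0.124) in Tet2KO. The Lyz2 value is uncertain in part, because its near copy Lyz1 had 205 to 1330 counts per library and shared reads could be split. Cd68, a lysosomal glycoprotein, had 12.4 and 10.3 CPM in WT_vehicle, 52.7 and 62.7 in WT_VitD, 15.5 and 18.5 in Tet2KO_vehicle, and 63.3 and 39.3 in Tet2KO_VitD. It rose 5.07-fold in WT (adjusted p = 0.00281) and stood at 3.01-fold in Tet2KO (adjusted p = 0.0528), with no overlap in either genotype. Adgre1, the F4/80 antigen, had 17.7 and 19.4 CPM in WT_vehicle, 45.3 and 69.6 in WT_VitD, 24.9 and 23.6 in Tet2KO_vehicle, and 42.5 and 39.8 in Tet2KO_VitD. Its log2 fold change was 1.63 (SE 0.223, adjusted p = 0.00542) in WT and 0.76 (SE 0.218, adjusted p = 0.219) in Tet2KO.

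Among the other identity genes, the pore-forming protein Mpeg1 rose 6.47-fold in WT, the tetraspanner Ms4a7 4.89-fold, the calcium-binding Aif1 3.54-fold and the lysosomal Laptm5 3.45-fold. The integrin Itgam had 11.7 and 10.8 CPM in WT_vehicle, 55.5 and 91.6 in WT_VitD, 20.6 and 25.2 in Tet2KO_vehicle, and 86.9 and 63.1 in Tet2KO_VitD, with no overlap between treatments (adjusted p = 0.00273 in WT and 0.0524 in Tet2KO). In GENCODE, 68.7% of its exon length is shared with another gene model, Gm49368, on the same strand. Gm49368 is not among the gene symbols counted here, and whether the overlap makes the Itgam value uncertain was not tested. Ptprc, the pan-leukocyte CD45, had 30.7 and 14.1 CPM in WT_vehicle, 37.4 and 46.6 in WT_VitD, 29.9 and 41 in Tet2KO_vehicle, and 25.2 and 31.7 in Tet2KO_VitD. It was not called, with log2 fold changes of 0.91 (SE 0.343, adjusted p = 0.0886) in WT and -0.32 (SE 0.339, adjusted p = 0.68) in Tet2KO. The 8 T cell markers summed to 63.6 CPM in WT_vehicle 1, the library with the higher Ptprc of its group, and to 9.29 in WT_vehicle 2, 15 and 25.2 in Tet2KO_vehicle, 10.4 and 9.06 in WT_VitD and 6.77 and 5.5 in Tet2KO_VitD; their part in the Ptprc value was not tested. Without WT_vehicle 1, the calls of Csf1r, Adgre1, Aif1 and Lyz2 ended, with adjusted p up to 0.14, 0.0554, 0.0997 and 0.0591 over the libraries left out; for Csf1r and Aif1 this was also so without WT_vehicle 2 or WT_VitD 2, and for Adgre1 without WT_VitD 2.

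The 3 genes encode the chains of C1q, the starter of the classical complement pathway, which macrophages secrete. C1qa had 49.6 and 85 CPM in WT_vehicle, 381 and 341 in WT_VitD, 65.8 and 72.1 in Tet2KO_vehicle, and 262 and 136 in Tet2KO_VitD. C1qb had 67.4 and 75.5 CPM in WT_vehicle, 337 and 354 in WT_VitD, 77.8 and 103 in Tet2KO_vehicle, and 306 and 167 in Tet2KO_VitD. C1qc had 62.2 and 70.1 CPM in WT_vehicle, 257 and 247 in WT_VitD, 64.7 and 82.1 in Tet2KO_vehicle, and 201 and 141 in Tet2KO_VitD. For all 3 genes the VitD libraries lay above the vehicle libraries, with WT_VitD highest and Tet2KO_VitD 2 the lowest of the 4. The log2 fold changes in WT were 2.42 (adjusted p = 0.00667), 2.27 (adjusted p = 0.0045) and 1.93 (adjusted p = 0.0033) for C1qa, C1qb and C1qc, with SE of 0.351, 0.297 and 0.226. In Tet2KO they were 1.53, 1.39 and 1.22, with adjusted p of 0.131, 0.107 and 0.0811. The calls of C1qa and C1qb in WT ended without WT_vehicle 1, at adjusted p of 0.0591 and 0.0555.

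Tyrobp and Fcer1g encode adaptors with an ITAM, the activation motif that couples TREM and Fc receptors to the kinase Syk, and the Fcgr genes encode receptors for antibody. All 6 rose in WT and 0 were called in Tet2KO, where all 6 had an unadjusted p under 0.05. Tyrobp had 12.4 and 15.2 CPM in WT_vehicle, 76.1 and 82.2 in WT_VitD, 14.3 and 17.8 in Tet2KO_vehicle, and 58.9 and 34.5 in Tet2KO_VitD. Fcer1g had 14.9 and 12.3 CPM in WT_vehicle, 59.8 and 73.4 in WT_VitD, 26.3 and 29.4 in Tet2KO_vehicle, and 59.7 and 64.2 in Tet2KO_VitD. Both genes separated the treatments, and Fcer1g was also higher in both Tet2KO_vehicle libraries than in WT_vehicle. Their log2 fold changes were 2.52 (SE 0.274, adjusted p = 0.00281) and 2.29 (SE 0.193, adjusted p = 0.00187) in WT, and 1.54 and 1.16 in Tet2KO with adjusted p of 0.0733 and 0.0528.

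Fcgr4, a receptor for immunoglobulin G, had the largest fold of the 6, from 0.808 and 0.114 CPM in WT_vehicle to 8.94 and 12.5 in WT_VitD, and from 2.27 and 1.17 in Tet2KO_vehicle to 9.01 and 5.28 in Tet2KO_VitD. Its log2 fold change was 4.55 (SE 0.694, adjusted p = 0.00793) in WT and 2.05 (SE 0.594, adjusted p = 0.228) in Tet2KO. The WT fold of Fcgr4 rested on 13 and 2 counts in WT_vehicle: its log2 was 6.48 without WT_vehicle 1 and 3.72 without WT_vehicle 2. In WT the activating receptors Fcgr1 and Fcgr3 rose 4.66- and 5.73-fold, and the inhibitory receptor Fcgr2b 5.4-fold. Without WT_VitD 2 the calls of Fcgr4 and Fcgr1 ended, and without WT_vehicle 1 those of Fcgr1 and Fcgr3, with adjusted p up to 0.0618, 0.0935 and 0.0554 for Fcgr4, Fcgr1 and Fcgr3. The call of Fcgr1 ended also without WT_vehicle 2. These genes resemble each other in sequence, and the treatment of reads that fit several places is not stated in the labels.

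Of 6 receptors that sense microbes, dying cells or lipids, 5 rose in WT and 1, Cd300lf, rose in Tet2KO. Clec4e, the lectin Mincle, had 0.497 and 0.285 CPM in WT_vehicle, 3.97 and 6.45 in WT_VitD, 2.45 and 1.84 in Tet2KO_vehicle, and 3.91 and 4.22 in Tet2KO_VitD. The groups ran from WT_vehicle through Tet2KO_vehicle to the VitD libraries, with log2 fold changes of 3.72 (SE 0.484, adjusted p = 0.00445) in WT and 0.92 (SE 0.407, adjusted p = 0.377) in Tet2KO. The WT fold of Clec4e rests on 8 and 5 counts in WT_vehicle. Clec7a, the beta-glucan receptor dectin-1, had 1.68 and 1.37 CPM in WT_vehicle, 10.7 and 17.8 in WT_VitD, 5.58 and 1.9 in Tet2KO_vehicle, and 10.7 and 7.7 in Tet2KO_VitD. It rose 9.34-fold in WT (adjusted p = 0.00983), and the fold in Tet2KO was 2.47 (adjusted p = 0.308).

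Cd300a, an inhibitory receptor related to Cd300lf, had 2.18 and 2.56 CPM in WT_vehicle, 11.8 and 13.3 in WT_VitD, 4.48 and 7.37 in Tet2KO_vehicle, and 5.78 and 5.76 in Tet2KO_VitD. The Tet2KO libraries of the 2 treatments overlapped, so that the log2 fold change was 2.40 (SE 0.324, adjusted p = 0.00519) in WT and -0.04 (SE 0.305, adjusted p = 0.959) in Tet2KO. Cd14, the lipopolysaccharide co-receptor, rose 3.63-fold in WT (adjusted p = 0.00925) and stood at 2.02-fold in Tet2KO (adjusted p = 0.228). Treml4, a TREM-like receptor of myeloid cells (chr17:48264295-48275360), had 0.497 and 0.399 CPM in WT_vehicle, 1.13 and 2.15 in WT_VitD, 2.39 and 4.3 in Tet2KO_vehicle, and 0.435 and 0.836 in Tet2KO_VitD. It was higher after VitD in WT, lower after VitD in Tet2KO, without overlap in either, and called in neither: log2 fold change 1.86 (SE 0.609, adjusted p = 0.0594) and -2.36 (SE 0.574, adjusted p = 0.161). Without WT_vehicle 1 the WT calls of Clec7a, Cd300a and Cd14 ended, and those of Clec7a and Cd14 also without WT_vehicle 2 or WT_VitD 2, with adjusted p up to 0.0792, 0.054 and 0.0896.

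Msr1, which takes up modified lipoproteins, had 3.54 and 2.85 CPM in WT_vehicle, 22.7 and 41.7 in WT_VitD, 5.65 and 6.03 in Tet2KO_vehicle, and 25.4 and 20.5 in Tet2KO_VitD. Siglec1, a sialic acid receptor induced by interferon, had 9.14 and 7.97 CPM in WT_vehicle, 36.8 and 44.4 in WT_VitD, 25 and 16.5 in Tet2KO_vehicle, and 39.3 and 58 in Tet2KO_VitD. Both rose in WT, by log2 3.33 (SE 0.333, adjusted p = 0.00273) and 2.25 (SE 0.278, adjusted p = 0.00387), with all 4 VitD libraries above all 4 vehicle libraries. In Tet2KO their log2 fold changes were 1.97 (adjusted p = 0.0524) and 1.23 (adjusted p = 0.122). The scavenger receptor Marco was close to the detection limit: it had 0 counts in WT_vehicle 1 and in Tet2KO_vehicle 1, which allows up to 0.186 and 0.184 CPM (3 counts, counting error only). It had 0.171 CPM in WT_vehicle 2, 0.614 in Tet2KO_vehicle 2, 0.794 and 1.53 in WT_VitD and 1.86 and 0.616 in Tet2KO_VitD, and was not called (adjusted p = 0.0948 in WT and 0.481 in Tet2KO).

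Cybb and Cyba encode the membrane subunits of the superoxide-producing phagocyte oxidase, and Ncf1 its cytosolic organiser. All 3 rose in WT and 0 were called in Tet2KO. Cybb had 11.6 and 10.1 CPM in WT_vehicle, 32.9 and 48.4 in WT_VitD, 24 and 30.4 in Tet2KO_vehicle, and 40.4 and 35.3 in Tet2KO_VitD. The 4 groups kept WT_vehicle lowest and Tet2KO_vehicle between it and the VitD libraries, with log2 fold changes of 1.91 (SE 0.242, adjusted p = 0.00428) in WT and 0.48 (SE 0.231, adjusted p = 0.406) in Tet2KO. Ncf1 had 12.4 and 8.77 CPM in WT_vehicle, 43 and 58.5 in WT_VitD, 9.33 and 15.7 in Tet2KO_vehicle, and 55.7 and 31.4 in Tet2KO_VitD. Cyba, also expressed outside the myeloid lineage, had 33.9 and 48.8 CPM in WT_vehicle, 108 and 104 in WT_VitD, 34.3 and 37.8 in Tet2KO_vehicle, and 84.3 and 49.1 in Tet2KO_VitD. For these 2 genes the vehicle libraries of the genotypes overlapped, and the log2 fold changes in WT were 2.27 (SE 0.361, adjusted p = 0.00906) for Ncf1 and 1.36 (SE 0.273, adjusted p = 0.0161) for Cyba. Both calls ended without WT_vehicle 1 and without WT_VitD 2, that of Ncf1 also without WT_vehicle 2 and that of Cyba without WT_VitD 1, with adjusted p up to 0.0781 and 0.115.

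All 4 monocyte and activation genes rose in WT, and Chil3 and Plac8 rose in Tet2KO as given above. Wfdc17, a secreted protein of activated macrophages, had 3.17 and 2.45 CPM in WT_vehicle, 94.3 and 161 in WT_VitD, 7.61 and 10.8 in Tet2KO_vehicle, and 81.6 and 33.9 in Tet2KO_VitD. No library of one treatment overlapped the other, and Tet2KO_vehicle was above WT_vehicle. The log2 fold change was 5.50 (SE 0.504, adjusted p = 0.00267) in WT and 2.64 (SE 0.434, adjusted p = 0.0581) in Tet2KO. Arg1, which encodes arginase, had 0.497 and 1.37 CPM in WT_vehicle, 17.1 and 31.8 in WT_VitD, 5.03 and 2.35 in Tet2KO_vehicle, and 50.4 and 10.7 in Tet2KO_VitD. Its highest library was Tet2KO_VitD 1, and its log2 fold change was 4.69 (SE 0.842, adjusted p = 0.0126) in WT and 3.05 (SE 0.736, adjusted p = 0.161) in Tet2KO. The Arg1 call in WT ended without WT_vehicle 1, WT_vehicle 2 or WT_VitD 2, with adjusted p up to 0.0859, and without WT_vehicle 2 its log2 fold change was 5.60.

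Levels of different genes were compared per kilobase of exon. In WT_vehicle, Lyz2 was the most abundant of the 45 genes at 174 CPM per kb, followed by C1qb at 65.7 and C1qa at 64.7, and Marco the least at 0.0444. After VitD in WT, Lyz2 stood at 1032 CPM per kb, C1qa at 347, C1qb at 318 and Wfdc17 at 239. Tet2KO_VitD had the same leading genes, with Lyz2 at 754 CPM per kb, C1qb at 217, C1qa at 191 and Wfdc17 at 108.

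Without VitD, 0 of the 45 genes were called between the genotypes by edgeR, and 0% of all genes were. The log2 difference of Tet2KO against WT was nevertheless above 0 for 44 of the 45, with a median of 0.66 beside -0.00 over all genes. Without Tet2KO_vehicle 2 it was above 0 for 37 of the 45, with a median of 0.45 beside -0.01 over all genes. In the fit to all 8 libraries, 20 genes had an unadjusted p under 0.05, against 2.97% of all genes. Both Tet2KO_vehicle libraries lay above both WT_vehicle libraries for 33 genes, while 14.3% of all genes showed that pattern. The reverse held for 0 of the 45 and for 15.5% of all genes. These 4 libraries all belong to the lower number range, with 2.1 to 2.57% of counts in ribosomal protein genes.

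The largest differences under vehicle were in the receptors Treml4 (log2 2.89, SE 0.604) and Clec4e (log2 2.44, SE 0.487), both with an adjusted p of 1. Treml4 had 8 and 7 counts in WT_vehicle and Clec4e had 8 and 5, so the size of both differences is uncertain. The 2 genes with the smallest adjusted p were Cybb, at log2 1.33 (SE 0.239, adjusted p = 0.958), and Fcer1g, at log2 1.03 (SE 0.189, adjusted p = 0.958). C1q and the lipid-associated genes differed less, with log2 differences of 0.04 to 0.34 and 0.19 to 0.24. Cyba was the only gene below 0, at log2 -0.20 (SE 0.271). DESeq2 called 4 of the 45 higher in Tet2KO_vehicle (Fcer1g, Siglec1, Cybb and Wfdc17), beside 0.0643% of its 28001 genes, and edgeR without the filter on low counts called 11, beside 0.586%.

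**Figure D4:**
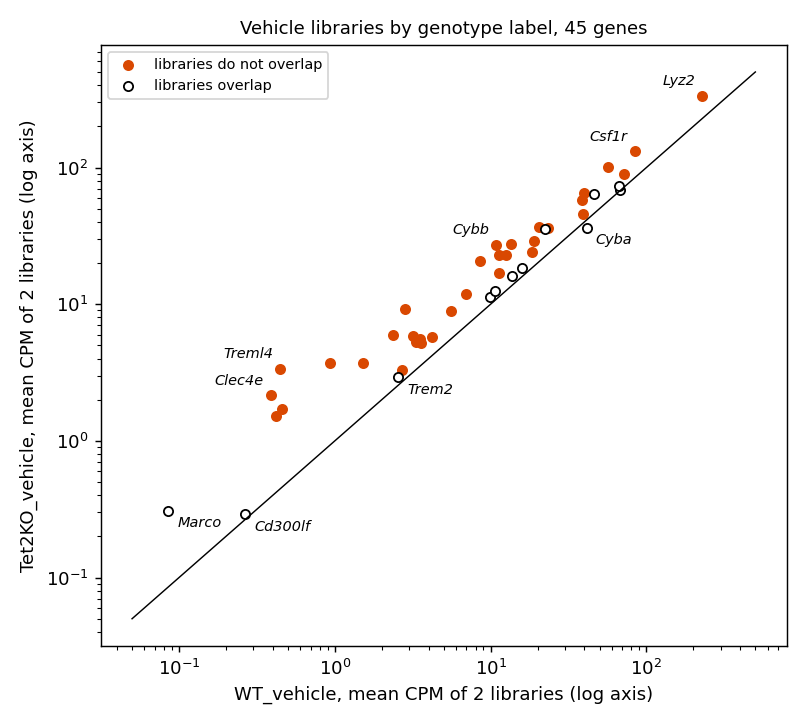
Mean CPM of the 2 Tet2KO_vehicle libraries (y axis) against that of the 2 WT_vehicle libraries (x axis), both on log axes, for the 45 genes; the line marks equal levels and filled points are genes whose libraries do not overlap. The 33 filled points all lie above the line, and Cyba is the only gene below it.

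Under VitD, edgeR called 0 of the 45 genes between the genotypes, where 0% of all genes were called, and 13 had an unadjusted p under 0.05, against 10.6% of all genes. The log2 difference of Tet2KO against WT was below 0 for 37 genes, with a median of -0.45 beside 0.03 over all genes. Both WT_VitD libraries lay above both Tet2KO_VitD libraries for 18 genes, beside 21.6% of all genes, and Timd4 and Gpnmb showed the reverse, beside 22.2%. The Tet2KO_VitD libraries themselves differed: Tet2KO_VitD 1 exceeded both WT_VitD libraries for 8 genes (Lyve1, Folr2, Cd163, Timd4, Gpnmb, Cd68, Marco and Arg1), beside 37.7% of all genes. The median log2 difference of the 45 was -0.73 without Tet2KO_VitD 1 and -0.32 without Tet2KO_VitD 2. Without Tet2KO_VitD 1, Tet2KO_VitD is left with the lower number range and WT_VitD holds the higher. Genotype and number range cannot then be told apart. With all libraries the number range is still not balanced between WT_VitD and Tet2KO_VitD. With the number range as a covariate 0 of the 45 were called, beside 0.0988% of all genes.

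The genes with the smallest unadjusted p under VitD were Gpnmb, at log2 1.04 (SE 0.263), Cd300a, at -1.12 (SE 0.303), Trem2, at -1.05 (SE 0.328), and Tyrobp, at -0.76 (SE 0.257), all with an adjusted p of 0.457. Gpnmb was thus higher in Tet2KO_VitD and the other 3 were lower.

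The interaction asks whether the response to VitD differed between the genotypes, and it shares its libraries with the comparisons above. It was called for 0 of the 45 genes and 0% of all genes by edgeR. The estimate was below 0 for 44 of the 45, which is a smaller rise in Tet2KO or, for Treml4, Ptprc and Cd300a, a log2 fold change above 0 in WT and below 0 in Tet2KO, with a median of -1.0 beside 0.02 over all genes, and 25 had an unadjusted p under 0.05, against 6.21% of all genes. The smallest p belonged to Cd300a (log2 -2.44, SE 0.441), Treml4 (log2 -4.22, SE 0.836), Wfdc17 (log2 -2.86, SE 0.62) and Clec4e (log2 -2.80, SE 0.628), all with an adjusted p of 0.794. DESeq2 called 2 of the 45, Wfdc17 and Cd300a, both below 0, beside 0.0643% of its genes, and edgeR without the filter called 16, beside 1.44%. The number range as a covariate gave 0, beside 0.0432% of all genes. The estimate was then below 0 for 42 of the 45, with a median of -0.84. Both WT_VitD libraries are of the higher number range, but in Tet2KO_VitD library 1 alone is. The number range is thus not balanced in the interaction. For the 4 named genes the mean level in Tet2KO_vehicle was above that in WT_vehicle and the mean level in Tet2KO_VitD was below that in WT_VitD.

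Other genes of the same pathways were read from lists, beginning with the signals that recruit and sustain macrophages. Their counts stand beside 10.6% of all genes called higher after VitD in WT and 0.179% in Tet2KO. Of 10 genes for growth factors and recruitment, 9 were tested and 7 rose in WT, and 1, Ccl2, rose in Tet2KO. Ccl2, the monocyte chemoattractant, had 0.808 and 0.797 CPM in WT_vehicle, 14 and 24.5 in WT_VitD, 1.1 and 1.51 in Tet2KO_vehicle, and 11.9 and 9.33 in Tet2KO_VitD. All 4 VitD libraries were far above the vehicle libraries, with log2 fold changes of 4.57 (SE 0.395, adjusted p = 0.00203) in WT and 3.01 (SE 0.367, adjusted p = 0.0236) in Tet2KO. Its receptor Ccr2, a mark of recruited monocytes, had 8.08 and 6.32 CPM in WT_vehicle, 41.4 and 86.4 in WT_VitD, 10.1 and 8.82 in Tet2KO_vehicle, and 34 and 31.6 in Tet2KO_VitD. Ccr2 rose 8.88-fold in WT (adjusted p = 0.00281) and stood at 3.46-fold in Tet2KO (adjusted p = 0.0811). The chemokine Cx3cl1 rose 3.29-fold in WT (adjusted p = 0.00779), a call that ended without WT_vehicle 1 or WT_VitD 2. Csf1, the ligand of Csf1r, had 127 and 104 CPM in WT_vehicle, 128 and 131 in WT_VitD, 107 and 127 in Tet2KO_vehicle, and 114 and 138 in Tet2KO_VitD, and was not called in either genotype (log2 0.17, SE 0.191, and 0.12, SE 0.191).

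**Figure D5:**
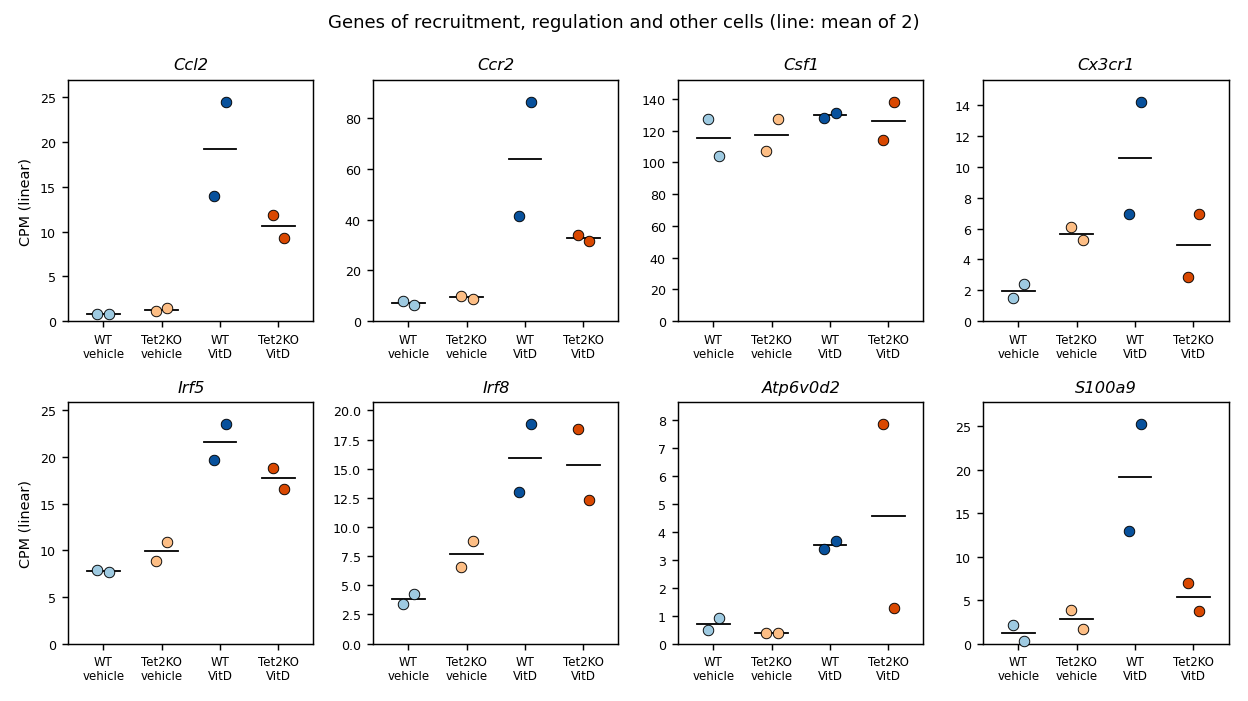
CPM (linear axis from 0) of 8 genes outside the 45, in each library by group; points are the 2 libraries and the line is their mean. Ccl2, Ccr2, Irf5 and Irf8 are higher in all 4 VitD libraries than in any vehicle library, Csf1 lies between 104 and 138 in every library, and S100a9 is highest in the WT_VitD libraries.

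Of 12 genes that carry or restrain ITAM signals, 11 rose in WT and 0 were called in Tet2KO. They include the kinase gene Lyn, which rose 3.88-fold (adjusted p = 0.00513), and the phosphatase gene Ptpn6, which rose 3.65-fold (adjusted p = 0.00785). Of 10 oxidase partners and lysosomal proteases, 7 rose in WT and 0 were called in Tet2KO, among them the protease genes Lgmn (3.05-fold, adjusted p = 0.00445) and Ctsc (2.17-fold, adjusted p = 0.0117) and the oxidase GTPase gene Rac2 (2.99-fold, adjusted p = 0.00906). Of 14 genes for the lipid handling of foam cells, 5 rose in WT and 0 were called in Tet2KO: Abcg1, a cholesterol exporter, rose 2.78-fold (adjusted p = 0.0132), and the lipases Nceh1 and Lipa rose 1.98-fold (adjusted p = 0.0299) and 1.6-fold (adjusted p = 0.0244). The median log2 fold change in WT was 1.59 for the ITAM list, 1.05 for the oxidase and protease list and 0.48 for the lipid list, beside -0.03 over all genes.

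Of 12 macrophage transcription factors, 5 rose in WT and 0 were called in Tet2KO. Irf8, an interferon regulatory factor needed for monocyte development, had 3.42 and 4.22 CPM in WT_vehicle, 13 and 18.8 in WT_VitD, 6.57 and 8.77 in Tet2KO_vehicle, and 18.4 and 12.3 in Tet2KO_VitD. The treatments did not overlap, and Irf8 rose 4.17-fold in WT (adjusted p = 0.00869) and stood at 2-fold in Tet2KO (adjusted p = 0.247). The related Irf5 rose 2.77-fold in WT (adjusted p = 0.00772). Of 9 tested monocyte markers, 5 rose in WT and 0 were called in Tet2KO; F13a1, a transglutaminase gene of monocytes and resident macrophages, rose 4.33-fold (adjusted p = 0.00869) and Hp, the haptoglobin gene, which liver and fat also express, rose 9.85-fold (adjusted p = 0.0128). Of 7 tested osteoclast markers, 1 rose in WT, Ctsk, by 1.84-fold (adjusted p = 0.0308), and 0 were called in Tet2KO, a share near the 10.6% of all genes called higher in WT. The Ctsk call ended in 6 of the 8 fits that left out a library, and its adjusted p was 0.829 once the number range was in the fit. The proton pump subunit Atp6v0d2 had 0.497 and 0.911 CPM in WT_vehicle, 3.38 and 3.68 in WT_VitD, 0.368 and 0.391 in Tet2KO_vehicle, and 7.83 and 1.28 in Tet2KO_VitD, and was not called (adjusted p = 0.067 and 0.155). The osteoclast receptor gene Tnfrsf11a was not called either (log2 -0.61, SE 0.216, adjusted p = 0.0744 in WT), and the fusion genes Ocstamp and Dcstamp, with Oscar and Calcr, stayed below 1 CPM in every library.

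Of 16 genes named from these lists that were called in WT, Ccl2 and Ccr2 kept the call whichever library was left out. Ccl2 alone of the 16 kept it when the number range was a covariate, at an adjusted p of 0.0286. The other 14 calls all ended without WT_VitD 2, and 11 of them also without WT_vehicle 1, with adjusted p up to 0.205.

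Other cell types moved with the treatment in part. Over all genes tested, 10.6% were called higher and 9.47% lower after VitD in WT, and 0.179% and 0.0185% in Tet2KO. In WT 6 of 8 tested neutrophil genes rose after VitD, among them Cxcr2 (19.3-fold), S100a9 (15.7-fold), S100a8 (13.8-fold) and Retnlg (11.6-fold), and 0 were called in Tet2KO. The 12 neutrophil markers summed to 10.9 and 4.84 CPM in WT_vehicle, 44.7 and 81.1 in WT_VitD, 17.1 and 10.1 in Tet2KO_vehicle, and 30.3 and 19.7 in Tet2KO_VitD, with Ly6g and the precursor genes Mpo, Elane and Camp below 1 CPM in every library. All 7 skeletal muscle genes rose in WT, from sums of 28.3 and 32.8 CPM to 105 and 455, and their sum was 23 and 14.2 in Tet2KO_vehicle and 23.8 and 20.1 in Tet2KO_VitD. Of 8 smooth muscle genes, 4 fell in WT (Itga8, Myh11, Smtn and Synpo2), and the sum of the 8 was 33503 and 33441 CPM in WT_vehicle, 24018 and 16161 in WT_VitD, 34195 and 31762 in Tet2KO_vehicle, and 21887 and 30978 in Tet2KO_VitD. Tet2KO_VitD 1, the library highest for Lyve1, Folr2, Cd163 and Arg1, stood apart in the sums of 6 endothelial and 6 adipocyte markers: 4264 CPM against 1253 to 2638 in the other 7 libraries, and 278 CPM against 822 to 1402. The endothelial gene Emcn (2.8-fold) and the fibroblast gene Lum (2.99-fold) were called higher in WT, and 0 of either list were called in Tet2KO. No T or B cell marker was called in either genotype. Of 7 tested dendritic cell genes, Clec9a rose and Siglech fell in WT, and of 6 tested mast cell genes Fcer1a rose and Kit fell. With 1 gene per direction, these lists are near the shares over all genes. The same holds for the endothelial and fibroblast lists, with 1 gene of 6 each. Whether any of these cell types has a part in the values of the 45 genes was not tested.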

How the data were processed

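Total RNA of the whole aortic tree was made into poly-A enriched, stranded libraries, per the labels' protocols. The authors deposited whole-number counts of reads for each gene symbol, not normalised. The submitters' processing notes name mm10 as the build and, as tools, featureCounts 2.0.2, STAR 2.7.8a and Trimmomatic 0.39. Annotation release and strand setting are not stated there. Groups and replicate numbers come from the sample titles.

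Counts were fitted with edgeR 4.0.16 (R 4.3.3): TMM normalisation, the filterByExpr filter, and quasi-likelihood F tests from a fit of 4 group means to all 8 libraries (4 residual degrees of freedom). In each of 5 contrasts p-values were adjusted over 16194 genes by the Benjamini-Hochberg method. The 45 genes, the lists, the alternatives and the rule for named genes were chosen with earlier results of these data known. That rule gives full values for 20 genes always, for the 10 largest called changes after VitD, for the 4 smallest p in the other contrasts, and for up to 3 genes per pathway list, some of which are not reported here. Csf1, Cx3cr1 and S100a9 were added to the plot of other genes after their values were seen. Positions and exon lengths come from GENCODE (mm10). Alternatives were DESeq2 1.42.0 and its size factors, no filter, the replicate number as a block, the number range of the library names as a covariate, leaving out each library, and, added after seeing the data, removal of a trend with exon length. Replicate numbers did not pair the samples. Tested on simulated data for the WT response to VitD (15857 genes), the procedure recovered 11% of 100 genes changed by log2 1 and 73% of 100 changed by log2 2, with 3 false calls.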

Additional observations from a re-analysis of the deposited data

Results flagged for a closer look

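Gpnmb moved in opposite directions after VitD in the 2 genotypes: both WT_VitD libraries lay below both WT_vehicle libraries, and both Tet2KO_VitD libraries above both Tet2KO_vehicle libraries. The interaction was 0.83 on the log2 scale (SE 0.369), with an adjusted p of 0.794 by edgeR's quasi-likelihood test, so the difference was not called. Treml4 moved in the other sense, up in WT and down in Tet2KO, again with no overlap within a genotype. Its interaction was -4.22 (SE 0.836), also with an adjusted p of 0.794. Treml4 had 8 and 7 counts in WT_vehicle and 7 and 19 in Tet2KO_VitD, so the size of that estimate is uncertain. Gpnmb and Treml4 were picked out of all the macrophage and monocyte genes because they moved in opposite directions without overlap. The share of all genes with such a pattern was not counted. Whether it is more frequent among the macrophage and monocyte genes than by chance was therefore not tested.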

How the results depend on the processing

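Of the 45 genes, the number called after VitD in WT was 40, beside 20.1% of all genes. It fell to 8 with the number range of the library names as a covariate, beside 0.358%. Leaving out 1 library gave 23 to 42 calls. The number called after VitD in Tet2KO was 5. It was 29 with DESeq2, 36 without the filter on low counts, 2 with the number range as a covariate, 1 with the trend with exon length removed, and 0 to 31 with 1 library left out. The 0 calls between genotypes under vehicle became 4 with DESeq2 and 11 without the filter, beside 0.0643% and 0.586% of all genes. The median log2 difference of the 45 under vehicle was 0.45 to 0.79 with 1 library left out. Under VitD the 0 calls became 6 without the filter, beside 2.18% of all genes. The median log2 difference of the 45 was -0.73 to -0.16 with 1 library left out. The interaction, with 0 calls, had 2 with DESeq2 and 16 without the filter, beside 0.0643% and 1.44% of all genes. Its median log2 estimate was -1.28 to -0.85 with 1 library left out. DESeq2 size factors kept all 5 counts. The replicate numbers do not pair the samples (correlations of same-numbered libraries from -0.189 to 0.166). With the replicate block 1 gene, Cd300lf, was called in Tet2KO, beside 0.148% of all genes, and 40 were called in WT, beside 15.3%. Among the genes that the naming rule picked in each contrast, the sign turned once: Atp6v0d2 in WT was -0.30 on the log2 scale with the number range, against 2.31 without it. Over all 45 genes signs turned more often. Between genotypes under vehicle, 44 differences were above 0 with all libraries and 37 without Tet2KO_vehicle 2. Under VitD, 8 were above 0 with all libraries and 16 without WT_VitD 2. The causes were not tested. In the simulated data, with 2 libraries per group, 11% of genes changed by log2 1 were called, where 15657 of 15857 genes were unchanged. After VitD in WT 20.1% of all genes were called, so that rate need not hold there. Csf1r was called in WT at log2 1.04 and Timd4 was not at log2 0.94.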
